A study of Mus musculus with 10 samples.

Results

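The 10 genes described here report on ERK signalling and were followed across the culture of male mouse embryonic stem cells (mESCs). They are 10 of the 25965 features in the deposited table, and all 10 were found in it by name. The members are Dusp6, Dusp4, Spry2, Spry4 and Spred1, which act as brakes on the pathway, the transcription factor genes Etv4, Etv5 and Egr1, and the responsive genes Ier3 and Phlda1. They were grouped as readouts of MEK inhibition, and no measured value enters the rule that groups them.

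Growth factors such as FGF4 activate the RAS, RAF, MEK and ERK kinases in turn, and ERK then induces immediate early genes and genes that shut the pathway down again. The transcripts of such feedback genes fall when MEK is blocked. 2i medium holds mESCs in the naive state by inhibiting MEK and GSK3, so in these cells the members are measured with the pathway held down.

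The cells were male C57/Bl6 mESCs from 2 independently derived lines. Both lines were derived under Keniry2022 conditions and each was split at passage 0 (p0), the starting group. They were then kept for 10 or 20 passages (p10 and p20) under Keniry2022 conditions, with cells in suspension and daily passaging, or under Mulas2019 conditions, with cells attached to gelatin and less frequent passaging. The labels call the first method New or Off and the second Old or On. Each of the 5 groups had 2 libraries, 1 from each line, and the p20 Keniry2022 and p10 Mulas2019 groups had the same number of days in culture. All 10 libraries came from 2i/LIF medium with the MEK inhibitor PD0325901, the GSK3 inhibitor CHIR99021 and leukaemia inhibitory factor. No library without the inhibitor was analysed here, so the values compare culture methods under inhibition and do not measure inhibition itself.

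Library totals worked out from the table lay between 24053996 and 30236823 reads, with 86.0% to 88.9% of reads in features. All 10 naive markers listed (Pou5f1, Nanog and Zfp42 among them) passed the expression filter given below, and the other marker lists are given with the results they touch. Replicates of p0 stood further apart than those of any other group, with a chi-square per degree of freedom of 95.7 against 3.64 to 5.67. Reads of 4 Y-linked genes were 132 or fewer in 5 libraries and 4578 or more in the other 5, with 1 library of each kind in every group. All libraries are labelled male, and per the study a line had lost the Y chromosome while it was being derived, ahead of the culture comparison. The library with few such reads is replicate 1 in every group except p20 Keniry2022, where it is replicate 2, so the libraries labelled p20 Keniry2022 replicates 1 and 2 go against the numbering of the other groups. Tests against p0 are given with and without p0 replicate 1 below.

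Levels are log2 RPKM (RPKM being reads scaled to exon length and library total), which allows genes of different length to be compared. Over all 10 libraries Etv5 was the most abundant member (5.998 to 6.47), followed by Spry2 (4.45 to 5.04), Ier3 (2.66 to 3.89), Etv4 (2.41 to 3.21), Spred1 (1.72 to 2.64) and Dusp6 (0.89 to 2.21). Phlda1 (-0.20 to 0.55), Dusp4 (-1.29 to -0.14), Spry4 (-2.58 to 0.08) and Egr1 (-5.43 to -0.32) were lower. The ranges of Etv5 and Spry2, of Spry2 and Ier3, and of Dusp6 and Phlda1 did not overlap. Every other neighbouring pair in this order overlapped. The filter for tests asked for a log2 RPKM over 0 in 50% or more of the libraries fitted, which 7 of the 10 members met. Dusp4, Spry4 and Egr1 did not, and they are described from reads further on.

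**Figure D1:**
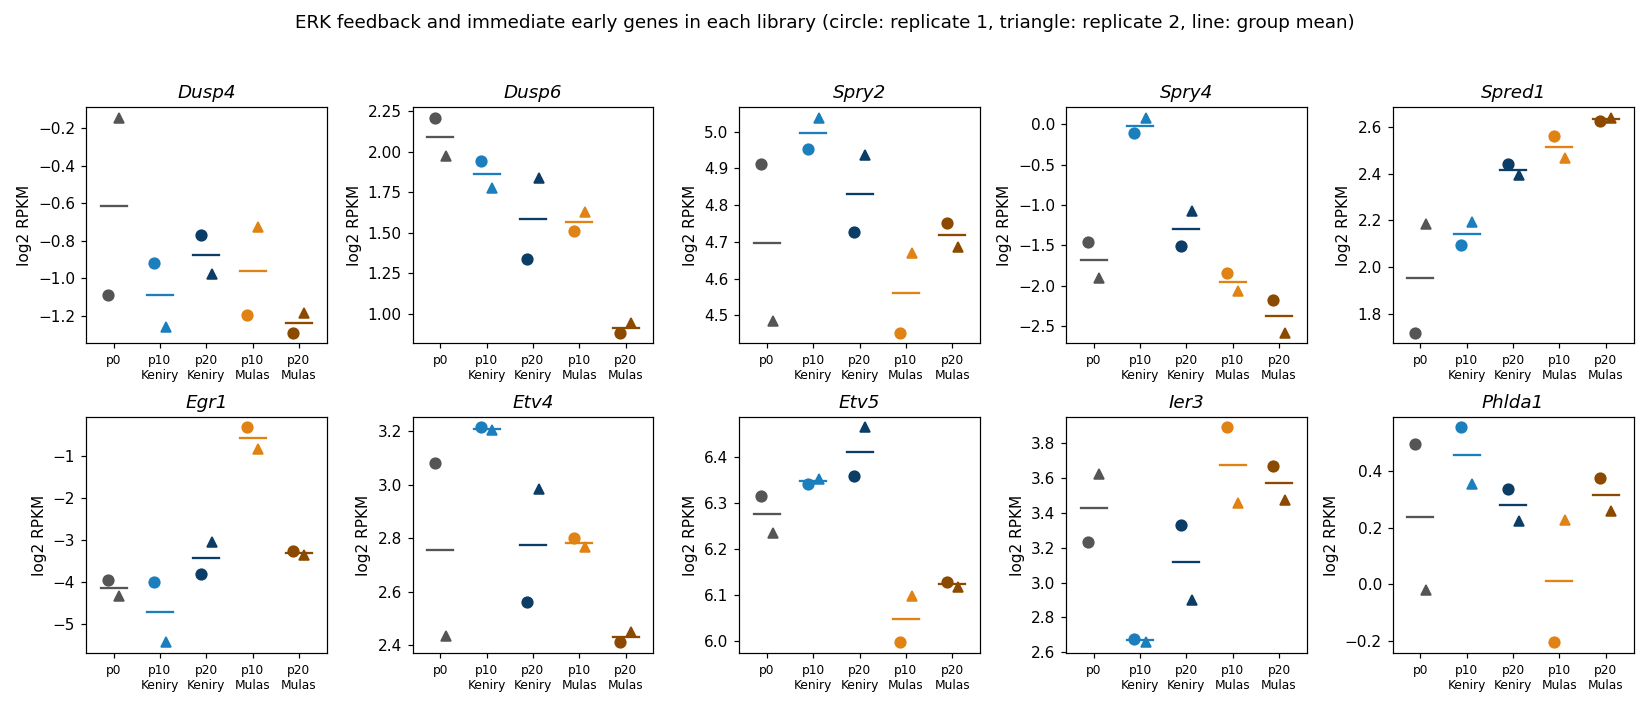
Log2 RPKM of the 10 members (vertical axes, a separate scale in each panel) in each library of the 5 groups (horizontal axes). Circles are replicate 1, triangles replicate 2 and lines group means. Ier3, Etv5, Spred1 and Spry4 do not overlap between the 4 Keniry2022 and the 4 Mulas2019 libraries, and Egr1 is high in the p10 Mulas2019 group.

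The main question was whether the 2 culture methods differed in these readouts, with p10 and p20 pooled to 4 libraries per method. Of the 7 members tested, 5 differed between the methods. Etv5, Spry2 and Etv4 were higher under Keniry2022 and Ier3 and Spred1 were higher under Mulas2019 (limma, two-sided, Benjamini-Hochberg adjusted over 11654 features, threshold 0.05). The same test called 51.5% of all features tested, 25.9% higher and 25.5% lower under Keniry2022, so calls among the members have to be read against calls in a large share of all features. The median log2 difference was 0.27 over the 7 members and -0.0030 over all features tested. The groups did not overlap for 3 of the 7 (Etv5, Ier3 and Spred1), against 46.5% of all features tested. The 4 libraries of a method are 2 lines at 2 passages each, so p-values measure the spread between these libraries rather than between independent derivations. In bulk RNA, fewer cells that express a gene and less RNA of that gene per cell cannot be told apart.

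Ier3, an immediate early gene of stress and growth factor signalling, had the largest difference among the 7. It lies on chromosome 17 (mm10 chr17:35821684-35822923, plus strand). Its log2 RPKM was 2.68 and 2.66 at p10 and 3.33 and 2.90 at p20 under Keniry2022. Under Mulas2019 it was 3.89 and 3.46 at p10 and 3.67 and 3.47 at p20. Every Keniry2022 library was below every Mulas2019 library. The means were 2.89 ± 0.31 and 3.62 ± 0.20 (SD, n = 4 each), a log2 difference of -0.73 (SE 0.15, limma adjusted p = 0.0025), or 1.66-fold lower under Keniry2022. The p0 libraries stood at 3.23 and 3.62 log2 RPKM. Ier3 had 205 to 407 reads a library.

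Etv5, an ETS transcription factor gene of the PEA3 group that responds to FGF signalling, lies on the minus strand of chromosome 16 (chr16:22381309-22439719). It stood at 6.34 and 6.35 log2 RPKM at p10 and 6.36 and 6.47 at p20 under Keniry2022. Under Mulas2019 it stood at 5.998 and 6.10 at p10 and 6.13 and 6.12 at p20. The groups did not overlap, and the spread within a method was small (SD 0.057 and 0.061, n = 4 each). The log2 difference was 0.29 (SE 0.042, limma adjusted p = 0.00038), or 1.23-fold higher under Keniry2022. The p0 libraries (6.32 and 6.24) fell between the 2 methods.

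Etv4, its relative in the PEA3 group, is encoded on the minus strand of chromosome 11 (chr11:101769742-101785371). Under Keniry2022 its log2 RPKM was 3.21 and 3.20 at p10 and 2.56 and 2.98 at p20, and under Mulas2019 it was 2.80 and 2.77 at p10 and 2.41 and 2.45 at p20. The methods overlapped through p20 Keniry2022 replicate 1, and p0 spanned 2.43 to 3.08. The log2 difference was 0.38 (SE 0.15, limma adjusted p = 0.049), or 1.30-fold higher under Keniry2022. This call lay next to the threshold and did not pass with the replicate block (adjusted p = 0.061), nor in 11 of the other 21 alternatives run. Among these were the fits without either p10 Keniry2022 library, p20 Keniry2022 replicate 2, p10 Mulas2019 replicate 2 or either p20 Mulas2019 library (0.31 to 0.44, adjusted p 0.051 to 0.13).

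Spry2 encodes a Sprouty protein that restrains receptor tyrosine kinase signalling upstream of ERK, and lies on the minus strand of chromosome 14 (chr14:105891949-105896819). Its log2 RPKM was 4.95 and 5.04 at p10 and 4.73 and 4.94 at p20 under Keniry2022, and 4.45 and 4.67 at p10 and 4.75 and 4.69 at p20 under Mulas2019. Of the Keniry2022 libraries only p20 replicate 1 lay within the Mulas2019 range. The log2 difference was 0.27 (SE 0.077, limma adjusted p = 0.014), or 1.21-fold higher under Keniry2022. The p0 libraries were at 4.91 and 4.48, further apart than the 4 Mulas2019 libraries.

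Spred1 encodes a Sprouty-related protein that recruits neurofibromin to inactivate RAS, and lies on the plus strand of chromosome 2 (chr2:117121374-117182279). Its log2 RPKM was 1.72 and 2.18 at p0, 2.09 and 2.19 at p10 Keniry2022 and 2.44 and 2.39 at p20 Keniry2022. It was 2.56 and 2.47 at p10 Mulas2019 and 2.63 and 2.64 at p20 Mulas2019, above every Keniry2022 and p0 library. Between methods the log2 difference was -0.29 (SE 0.083, limma adjusted p = 0.014), or 1.23-fold lower under Keniry2022. Its direction was thus opposite to that of Spry2, although both products are brakes on the same pathway.

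Dusp6, a phosphatase that removes the activating phosphates of ERK in the cytoplasm, lies on the plus strand of chromosome 10 (chr10:99263231-99267488). It had 2.21 and 1.97 log2 RPKM at p0, 1.94 and 1.78 at p10 Keniry2022, 1.34 and 1.84 at p20 Keniry2022, 1.51 and 1.63 at p10 Mulas2019 and 0.89 and 0.95 at p20 Mulas2019. Both p20 Mulas2019 libraries were below all other libraries. The pooled log2 difference of 0.48 (SE 0.19) had a limma adjusted p of 0.053 and was not called. With passage as a term in the model the same difference had an adjusted p of 0.0083, and it passed under 9 of the 21 alternatives that gave a value.

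Phlda1, a gene induced by growth factors whose product has a pleckstrin homology-like domain, also lies on chromosome 10 (chr10:111506286-111508645, plus strand). Its log2 RPKM was 0.49 and -0.02 at p0, 0.55 and 0.36 at p10 Keniry2022, 0.34 and 0.22 at p20 Keniry2022, -0.20 and 0.23 at p10 Mulas2019 and 0.38 and 0.26 at p20 Mulas2019. The methods overlapped. The log2 difference was 0.20 (SE 0.14, limma adjusted p = 0.26), on 41 to 81 reads a library.

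The promoters of the members with a RefSeq entry (GRCm38.p6) were read for sequence features they share, because these members moved in both directions between the methods. Entries were found for 5 members, 6 start sites in all since Etv5 has 2, and the 250 bases before each start were searched on both strands. The 3 shown are those of Ier3, which was lower under Keniry2022, and of Spry2 and Etv5 (the outer start), which were higher. Capitals mark GGAA on either strand (TTCC when read on the other), the core that ETS factors bind.
Ier3 promoter, chr17:35821463-35821712, plus strand: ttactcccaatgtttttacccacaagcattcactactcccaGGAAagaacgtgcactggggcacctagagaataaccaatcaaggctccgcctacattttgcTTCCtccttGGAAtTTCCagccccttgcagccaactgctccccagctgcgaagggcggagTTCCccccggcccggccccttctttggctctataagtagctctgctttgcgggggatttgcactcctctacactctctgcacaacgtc
Spry2 promoter, chr14:105896820-105897069, minus strand: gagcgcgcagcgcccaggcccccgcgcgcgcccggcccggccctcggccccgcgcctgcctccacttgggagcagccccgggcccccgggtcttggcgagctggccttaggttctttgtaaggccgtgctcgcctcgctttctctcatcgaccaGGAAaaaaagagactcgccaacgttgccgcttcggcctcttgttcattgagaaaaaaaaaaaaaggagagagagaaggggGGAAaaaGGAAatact
Etv5 outer promoter, chr16:22439571-22439820, minus strand: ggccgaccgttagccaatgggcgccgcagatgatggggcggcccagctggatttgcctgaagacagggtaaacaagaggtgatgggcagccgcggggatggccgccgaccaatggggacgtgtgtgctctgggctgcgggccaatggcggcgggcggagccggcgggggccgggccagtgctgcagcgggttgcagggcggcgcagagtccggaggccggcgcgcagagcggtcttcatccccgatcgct
The Ier3 window holds 5 such cores, the Spry2 window 3 and the outer Etv5 window 0. The windows not shown hold 6 (Dusp6), 4 (Spred1) and 4 (the inner start of Etv5). A link between these counts and the direction of the difference was not tested. GGAA, a motif added after the first search, was present in 5 of the 6 member windows and in 93.4% of the 32851 promoter entries. The 4 longer motifs searched were the ETS site CCGGAA, the CArG box of serum response factor, the AP-1 site TGACTCA and the cAMP response element core TGACG. None of them was in the 6 member windows, and they were in 12% (CCGGAA), 1.47% (CArG box), 4.46% (TGACTCA) and 17.8% (TGACG) of all entries. These are matches of letters in a short window and carry no statement about binding.

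The members below the filter were described from whole reads worked out from the log2 values. Egr1, the zinc finger transcription factor gene that is among the most rapid responders to ERK, is on chromosome 18. It had 7 and 6 reads at p0, 8 and 3 at p10 Keniry2022, 9 and 16 at p20 Keniry2022, 87 and 76 at p10 Mulas2019 and 13 and 12 at p20 Mulas2019. The p10 Mulas2019 libraries stood apart from all others, and no other library held more than 16 reads. At p10 the summed reads were 163 under Mulas2019 and 11 under Keniry2022, a rate 15.6 times as high under Mulas2019 (exact 95% interval 8.47 to 31.8, counting error only). At p20 the sums were 25 and 25, a ratio of Keniry2022 to Mulas2019 of 0.959 (0.528 to 1.74).

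A test of Egr1 needed a filter on reads (10 reads in at least 2 libraries), which was chosen after its values were seen. With it, Egr1 at p10 was 17.5-fold lower under Keniry2022 on the log2 RPKM scale (-4.13, SE 0.53, limma adjusted p = 0.0070), and 9.09% of all features were called in that comparison. The call did not pass without p10 Keniry2022 replicate 2 (-3.41) or without p10 Mulas2019 replicate 1 (-3.87), in fits that called almost no features. In a fit of the 8 libraries at p10 and p20 alone, the p10 difference had a limma adjusted p of 0.00073 (6349 of 15092 features called). Egr1 at p10 Mulas2019 was also 11.8-fold higher than at p0 (3.56, SE 0.53, limma adjusted p = 0.0088), a comparison that called 27.5% of features. When p0 replicate 1 was left out, the difference was 3.76 (adjusted p = 0.0041, 32.6% of features called), and the call was lost without p10 Mulas2019 replicate 1 (3.31, adjusted p = 0.082). Against the day-matched p20 Keniry2022 group the log2 difference was -2.85 (adjusted p = 0.024, 6.68% of features called), and in 6 of its 10 fits that left out a library the adjusted p was above 0.05. At p20 the methods differed by -0.12 (SE 0.53, adjusted p = 0.93), a sign that turned without p20 Keniry2022 replicate 1 (0.26). The change of the difference between passages was 4.01 (SE 0.74, adjusted p = 0.82, unadjusted p = 0.00061), so a passage-dependent difference did not pass the adjustment. For this change 0 of all 15202 features were called. In the fit of the 8 libraries alone Egr1 had a limma adjusted p of 0.10 for it, with 0 of 15092 features called. In the pooled comparison the log2 difference of -2.12 passed with this filter (adjusted p = 0.039) and did not in voom (-1.99, adjusted p = 0.061), without a filter (adjusted p = 0.11) or in 5 of the 8 fits that left out a library (adjusted p up to 0.11). It did not pass either in an exact permutation test over the 8 libraries (two-sided p = 0.086).

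Spry4, another Sprouty gene, is also on chromosome 18. It had 40 and 33 reads at p0, 120 and 140 at p10 Keniry2022, 45 and 64 at p20 Keniry2022, 31 and 33 at p10 Mulas2019 and 28 and 21 at p20 Mulas2019. Both p10 Keniry2022 libraries were far above the other 8, and every Keniry2022 library had more reads than every Mulas2019 library. Pooled, Spry4 was 2.85-fold higher under Keniry2022 (log2 1.51, SE 0.35, limma adjusted p = 0.0054 with the filter on reads, 46.6% of features called). This held without any 1 library (1.27 to 1.80, adjusted p 0.0018 to 0.018). The exact permutation test gave a two-sided p of 0.029, the smallest it can give with 4 against 4 libraries, and 0.086 after adjustment over the 3 members tested this way.

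At p10 Spry4 was 3.84-fold higher under Keniry2022 than under Mulas2019 (1.94, SE 0.28, limma adjusted p = 0.0091, 9.09% of features called). That call did not survive the removal of any 1 of the 4 p10 libraries, which leaves 1 library in a group (1.83 to 2.05). Those fits also called far fewer of all features. At p20 the difference was 1.09 (SE 0.28, adjusted p = 0.081, 2.53% of features called). In a fit of the 8 libraries at p10 and p20 alone, the p20 difference was called (limma adjusted p = 0.015, 4750 of 15092 features called). The p10 difference was called there too (adjusted p = 0.00091, 6349 of 15092 features called). Against p0, p10 Keniry2022 was higher by 1.67 (SE 0.28) with a limma adjusted p of 0.091, in a comparison where 0.145% of features were called. Without p0 replicate 1 that difference was 1.89 (adjusted p = 0.032, 3.09% of features called), and without p0 replicate 2 it was 1.45 (adjusted p = 0.0050, 52.1% of features called).

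Dusp4, a nuclear phosphatase of ERK on chromosome 8 (chr8:34807297-34819894, plus strand), had between 29 and 67 reads a library. The log2 RPKM was -1.09 and -0.14 at p0, -0.92 and -1.26 at p10 Keniry2022, -0.77 and -0.98 at p20 Keniry2022, -1.20 and -0.73 at p10 Mulas2019 and -1.29 and -1.19 at p20 Mulas2019. The methods overlapped. The pooled log2 difference was 0.12 (SE 0.18, limma adjusted p = 0.61, exact permutation p = 0.49). At this depth a summed rate at p10 of 0.892 times the Mulas2019 rate had an interval of 0.641 to 1.24.

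**Figure D2:**
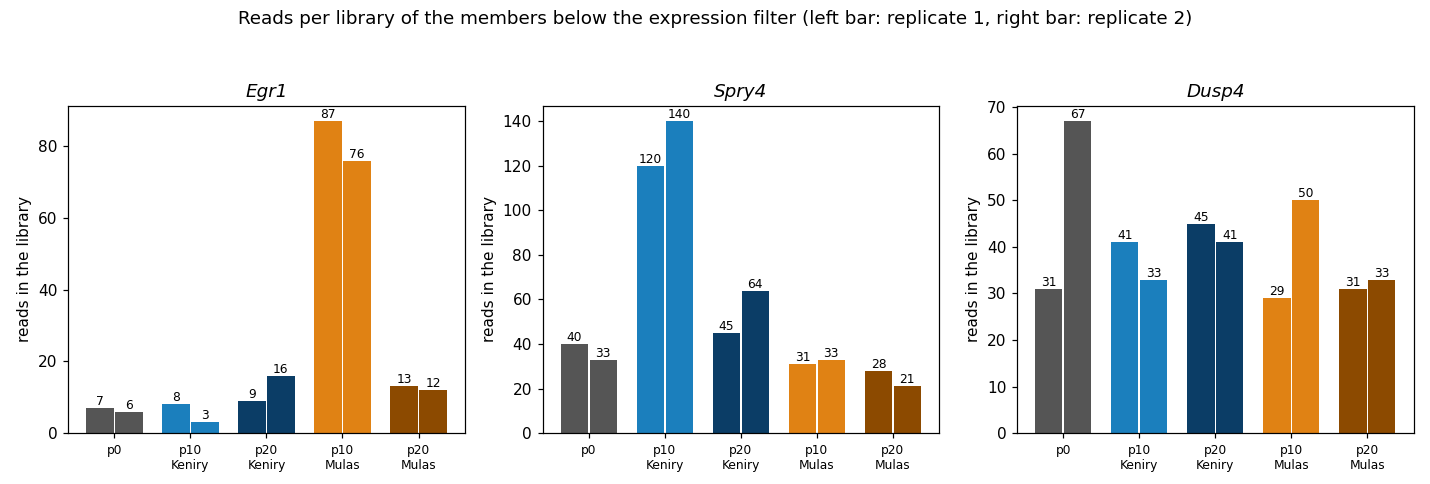
Reads per library (vertical axes, from 0) of Egr1, Spry4 and Dusp4 in the 5 groups (horizontal axes), with the number printed on each bar. Left bars are replicate 1 and right bars replicate 2. Egr1 reached 87 and 76 reads in p10 Mulas2019 and 16 or fewer elsewhere, and Spry4 was highest in p10 Keniry2022 (120 and 140).

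At single passages the tests shared 1 estimate of the spread over all 10 libraries, p0 included. At p10, Ier3 was called (-1.01, SE 0.20, limma adjusted p = 0.027, 2.01-fold lower under Keniry2022) and the other 6 members tested were not, against 8.53% of all features. Ier3 was not called without any 1 of the 4 p10 libraries or either p20 Mulas2019 library (-1.22 to -0.79). Those fits also called a smaller share of all features. At p20 none of the 7 was called, against 2.15% of features. The unadjusted p was below 0.05 for Dusp6 (0.67, adjusted p = 0.095) and Etv5 (0.29, adjusted p = 0.11), and the voom fit called none of the 7 either. In the day-matched comparison Etv5 was called (0.36, SE 0.079, adjusted p = 0.040) and the other 6 were not, against 6.43% of features. That call was lost without any 1 of the 8 libraries at p10 and p20 (0.31 to 0.42), and with the replicate block. Those fits also called a smaller share of all features. No member was called for a method difference that changed with passage, and neither was any of the 11561 features (405 at an unadjusted p below 0.05, and 0 by voom).

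These counts depended on whether p0 libraries entered the fit. In a model of the 8 libraries at p10 and p20, 5 members were called at p10, with Etv5, Etv4 and Spry2 higher and Ier3 and Spred1 lower under Keniry2022, and 48.3% of features were called. At p20 that model called 4, with Dusp6, Etv5 and Etv4 higher and Spred1 lower, against 36.7% of features. In the day-matched comparison it called Etv5, Ier3 and Spry2, against 43.4% of features. Without p0 replicate 1 the counts were 5 at p10, 3 at p20 and 3 for the day-matched groups, against 47.9%, 36.2% and 43.1% of features.

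Against p0, no member was called at p10 or p20 of Keniry2022, where 0.199% of features were called in each comparison. The unadjusted p was below 0.05 for Ier3 at p10 (-0.76, adjusted p = 0.14) and for Spred1 (0.47, adjusted p = 0.14) and Dusp6 (-0.50, adjusted p = 0.15) at p20. The voom fit called no member in either comparison, but it called none of all 11561 features either. Without p0 replicate 1, p10 Keniry2022 differed from p0 in Etv4 (0.78), Spry2 (0.51) and Ier3 (-0.96), against 5.23% of features, and p20 Keniry2022 in none, against 4.61%. At p10 Mulas2019, Spred1 rose (0.56, SE 0.15, limma adjusted p = 0.029), against 33.0% of features. At p20 Mulas2019, Spred1 rose (0.68, adjusted p = 0.021) and Dusp6 fell (-1.18, SE 0.18, adjusted p = 0.011, 2.26-fold lower), against 29.3% of features. Without p0 replicate 1 these 3 calls remained, at 0.33, 0.45 and -1.06, and Etv5 was called too at p10 (-0.19, adjusted p = 0.041), against 40.5% and 37.5% of features. Spred1 at p10 was not called without any 1 of the 8 libraries at p10 and p20 (0.51 to 0.61), in fits that also called a smaller share of all features. At p20, neither Spred1 (0.68 to 0.69) nor Dusp6 (-1.21 to -1.14) was called without either p20 Mulas2019 library. Those fits leave 1 library in that group and called almost no features, so the loss does not set these genes apart. The comparisons with p0 share the p0 libraries and are not independent of each other.

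Further groups of genes of the pathway were examined in the pooled comparison. The first was the cascade itself, 32 genes from Fgf4 and its receptors through the adaptors, RAS, RAF, MEK and ERK to the ribosomal S6 kinases and the nuclear factors Elk1 and Srf. Of these, 31 were in the table (Hras was not found by name) and 29 were tested. Of the 29, 14 were called, 4 higher and 10 lower under Keniry2022, 15 were not called, and the median was -0.089. This stands against 51.5% of all features called, 25.9% higher and 25.5% lower, and a median of -0.0030 over all features. Higher were the receptor gene Fgfr2 (0.29), the adaptor Shc1 (0.28), the RAS GTPase-activating protein gene Rasa1 (0.15) and the MEK2 gene Map2k2 (0.13). Lower were the scaffold Ksr1 (-0.62), the S6 kinase gene Rps6ka2 (-0.53), the RAS exchange factor gene Sos2 (-0.49) and the kinase gene Braf (-0.41). Map2k2 did not pass in 11 of 22 alternatives, among them the fits without either p10 library of either method, p20 Keniry2022 replicate 2 or p20 Mulas2019 replicate 2 (0.10 to 0.13, adjusted p 0.067 to 0.11). Fgfr2 did not pass without p20 Keniry2022 replicate 1, p10 Mulas2019 replicate 1 or p20 Mulas2019 replicate 1 (0.21 to 0.30, adjusted p 0.0501 to 0.065), nor Rasa1 without the last of these (0.13, adjusted p = 0.051). The ligand gene Fgf4 (6.73 and 6.65 log2 RPKM under Keniry2022 and Mulas2019) and the MEK1 gene Map2k1 (5.86 and 5.94), named after their values were seen, were not called.

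The other group was 35 further phosphatase, Sprouty and immediate early genes, of which 24 were tested. Of the 24, 15 were called, 3 higher and 12 lower under Keniry2022, 9 were not called, and the median was -0.18, against the same 51.5% of all features. The orphan nuclear receptor gene Nr4a1 was higher (0.39). The stress-responsive transcription factor gene Atf3 (-1.13, SE 0.15, limma adjusted p = 0.00026, 2.19-fold lower), the small Maf gene Maff (-0.55), the EGF receptor ligand gene Hbegf (-0.49) and the EGF receptor inhibitor gene Errfi1 (-0.47) were lower. Both directions therefore occurred within these genes, as they did within the members, but the balance differed. Of the 24, 6 differences were positive and 18 negative, against 5 and 2 among the 7 members tested. That the balance differed was not tested. Among those left out by the level rule and named after their values were seen, Etv1, the remaining PEA3 group gene, was higher (1.26) and Jun was lower (-0.80).

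Against p0, 12 of the 29 cascade genes were called at p10 Mulas2019 and 12 at p20 Mulas2019, 11 of them higher in each case, against 33.0% and 29.3% of all features. Of all 11561 features, 1812 were called higher and 2004 lower at p10 Mulas2019, and 1695 higher and 1691 lower at p20 Mulas2019. None of the cascade genes was called at either passage of Keniry2022 by limma or by voom. There limma called 0.199% of all features and voom called none, so a count of 0 does not set these genes apart. The unadjusted p was below 0.05 for 8 of them at p10 and 10 at p20. By sign alone, 23 of the 29 were above p0 at p10 Keniry2022 and 23 at p20 Keniry2022 (medians 0.13 and 0.18). Under Mulas2019 this was so for 24 at p10 and 22 at p20 (medians 0.25 and 0.34). Of the 24 further targets, 9 were called at p10 Mulas2019 (6 higher) and 7 at p20 Mulas2019 (6 higher). The count was 1, lower, at p10 Keniry2022 and 0 at p20 Keniry2022 (9 at an unadjusted p below 0.05, and 0 by voom). The Keniry2022 counts of both lists depended on which p0 library was kept. They rose, with the share of all features, when p0 replicate 2 was left out. With p0 replicate 1 left out, the cascade counts were 16 at p10 Mulas2019 (13 higher), 13 at p20 Mulas2019 (11 higher), 0 at p10 Keniry2022 and 2 at p20 Keniry2022, both higher. Those of the further targets were 10, 9, 1 and 1 in the same order. The shares of all features were then 40.5%, 37.5%, 5.23% and 4.61%.

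**Figure D3:**
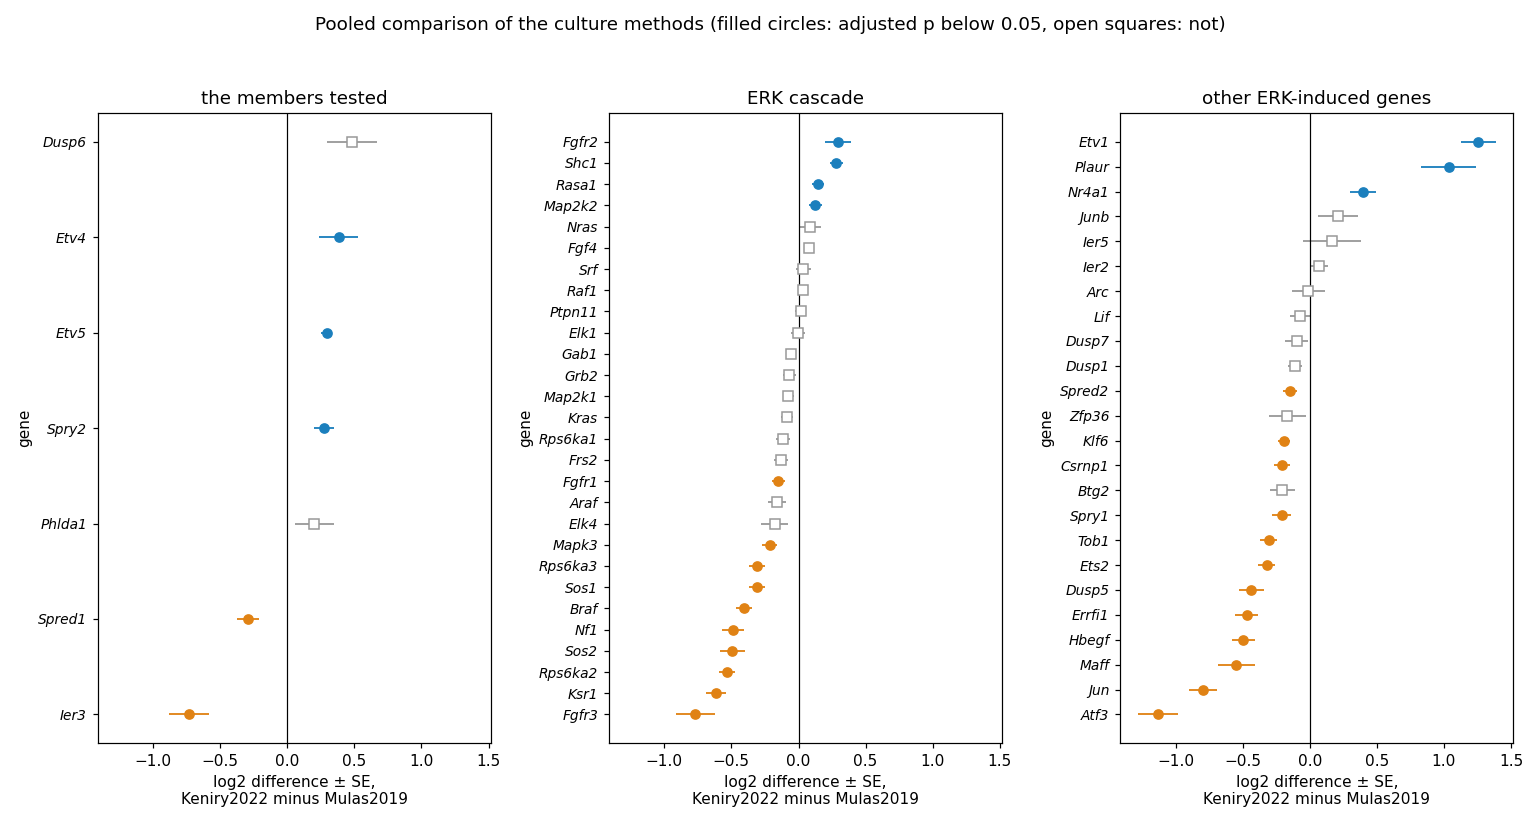
Log2 difference between the methods with p10 and p20 pooled (horizontal axes, Keniry2022 minus Mulas2019, bars are standard errors of the limma fit) for the 7 members tested, the cascade genes tested except 1 that is not shown, and 24 further ERK-induced genes. Filled circles passed an adjusted p of 0.05 and open squares did not. Each panel holds genes on both sides of 0.

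Markers of other cells were set beside these results, and their part in them was not tested. Summed RPKM of the 10 naive markers was 1462 to 1602 under Keniry2022, 1350 to 1373 under Mulas2019 and 1564 to 1805 at p0. In the pooled comparison 4 of these 10 were called, 3 higher and 1 lower under Keniry2022, against 51.5% of all features. Of 8 markers of primed or early differentiated cells, 2 passed the filter, both called higher under Keniry2022, against 25.9% of all features called higher. The summed RPKM of all 8 was 34.2 to 40.9 under Keniry2022 and 21.3 to 26.2 under Mulas2019. Of 7 trophoblast markers 2 passed, both called lower under Keniry2022, against 25.5% of all features called lower. Elf5 and Hand1 were under 10 reads in every library. The summed RPKM of all 7 was 22.8 to 27.2 under Keniry2022 and 28.1 to 35.4 under Mulas2019. None of 8 primitive endoderm markers passed (summed RPKM 1.71 to 2.62 under the 2 methods). Of 7 fibroblast markers 1 passed and was not called, and Col1a2, Col3a1, Lum and Postn were under 10 reads in every library. The summed RPKM of all 7 was 81.5 to 118.8 under Keniry2022 and 54.6 to 95.2 under Mulas2019.

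For the 5 members called in the pooled comparison, the features with the most similar profile over the 10 libraries were found as the smallest root mean square difference between centred log2 values, over 10150 features. Etv5 was closest to Dnajb1 (0.037) and Ywhah (0.047), Spred1 to Kif1c (0.053) and Fam73a (0.060), and Spry2 to Snx11 (0.067) and Zscan10 (0.073). Etv4 was closest to Sfn (0.15) and Parvb (0.15), and Ier3 to Anxa2 (0.15) and Rab39 (0.19). The median over all features was 0.24 for Etv5 and 0.45 for Ier3. No other member was among these nearest features.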

How the data were processed

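RNA-seq was performed on 10 libraries of male mESCs. The authors deposited 1 table of log2 values for 25965 features, named as log CPM. The deposited log2 values are log2 RPKM, since the value of a feature with 0 reads depended on its length, and 0 reads had been entered as 0.9. Per the study, trimmed reads were aligned to mm10 with HISAT2 and quantified with SeqMonk, whereas TopHat2 2.0.12 and bcl2fastq are named in the submitters' notes, and the difference is unresolved. Strand setting, annotation release and treatment of multi-mapping reads are not stated. No member overlaps another feature in the table.

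Library totals, exon lengths and whole reads were worked out from the values of features with 0 reads and from a search for lengths that give whole reads (99.996% of features whole within 0.1 reads in all libraries, with 1 feature left without a length). Totals give the precision of low values, and intervals on reads cover counting error only, since reads are not independent molecules. Features were annotated with GENCODE vM21 (GRCm38).

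Tests were run in R 4.3.3 with limma 3.58.1 on the deposited log2 values, with an intensity trend (eBayes), two-sided, Benjamini-Hochberg adjusted over all features tested, threshold 0.05. The trend method took the place of the study's voom fit because the table holds log2 values. The filter was a log2 value above 0 in at least 50% of the libraries of the fit, and no pseudocount was added. The pooled comparison used 8 libraries, with method as the only term and p10 and p20 as replicates as in the study. Other comparisons used 1 model of 5 groups over 10 libraries. SDs are between libraries, and SEs are from the limma fit. Members below the filter were tested with exact permutation tests in scipy 1.17.1 and with a filter on reads that was chosen after seeing the data. The fits were tested on simulated data.

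The alternatives were no filter, a stricter filter (log2 above 2), log2(RPKM + 1), median centring, quantile normalisation, library quality weights, no trend, voom on whole reads with trimmed mean of M values scaling, passage as a term, other sets of libraries, a replicate block and each library left out. Replicate numbers were checked for pairing. The replicate 1 minus 2 difference correlated across features between groups by 0.17 to 0.63 where p20 Keniry2022 was not involved, and by -0.12 to -0.70 where it was, so the block was not used in the main fit. No library was removed as a duplicate, since replicates of every group differed by more than sampling noise.

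The members and the gene lists were chosen with earlier results of these data known. All 10 members are named. From the cascade and further target lists, the 4 called features with the largest difference in each direction and a mean log2 value of at least 1 are named, with any other gene said to be chosen later. No protein sequence was used here. Promoter sequences are from RefSeq (GRCm38.p6). The values of 1 cascade gene are not reported here.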

Additional observations from a re-analysis of the deposited data

Results flagged for a closer look

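Spry4, Etv5 and Ier3 moved in opposite directions from the mean of the p0 libraries in the 2 methods, in every one of the 8 libraries at p10 and p20. Spry4 was higher than p0 in all 4 Keniry2022 libraries (mean log2 change 1.03) and lower in all 4 Mulas2019 libraries (-0.48). Etv5 was higher in all 4 Keniry2022 libraries (0.10) and lower in all 4 Mulas2019 libraries (-0.19). Ier3 was lower in all 4 Keniry2022 libraries (-0.54) and higher in all 4 Mulas2019 libraries (0.19). That the changes have opposite signs was not tested. All 10 members were searched for this pattern, which requires that the methods do not overlap, as was so for 46.5% of all features tested. The share of all features with the whole pattern was not counted.

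These signs rest on the mean of 2 p0 libraries that were the least alike of any replicates. Without p0 replicate 1, Etv5 kept its pattern in all 8 libraries, with mean changes of 0.14 and -0.15. Ier3 was then below p0 in all 4 Keniry2022 libraries (-0.73) but above it in 2 and below it in 2 of the Mulas2019 libraries (mean -0.0012). Spry4 was above p0 in all 4 Keniry2022 libraries (1.25) and below it in 3 of 4 Mulas2019 libraries (-0.26). Against p0 replicate 1 alone, Etv5 again kept its pattern, while 1 Keniry2022 library lay below p0 in Spry4 and 1 above it in Ier3. The difference between the methods, which does not involve p0, is the pooled comparison given above.

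Among the 4 Keniry2022 libraries, Etv5 in p20 Keniry2022 replicate 2 lay far above the others, at a log2 RPKM of 6.47. Its gap to the next library was 0.862 of the whole range of the group. Chance gives such a gap in about 1 of 20 groups. All 10 members were searched in both methods, so 1 gap of this size is about what chance gives. The range itself was small.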

How the results depend on the processing

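Counts of members called depended on which libraries set the spread. In the pooled comparison the count of 5 fell to 3 in the model of all 10 libraries and lay between 4 and 6 with 1 library left out. The cascade count of 14 became 5 in that model (11 to 16 with 1 library left out), and the further target count of 15 became 8 with the stricter filter (12 to 15). At p10 the count of 1 became 3 without a filter or with the filter on reads, 4 in voom with that filter, 5 in the model of 8 libraries and 6 with quality weights, and lay between 0 and 5 with 1 library left out. It was 5 without either p0 library, and 0 without any of the p10 or p20 Mulas2019 libraries or any of the p10 Keniry2022 libraries. At p20 the count of 0 became 4 in the model of 8 libraries and 5 with quality weights (0 to 4 with 1 library left out, 3 without p0 replicate 1 and 4 without p0 replicate 2). For the day-matched groups the count of 1 became 2 without a filter, with the filter on reads and in voom with that filter, 3 in the model of 8 libraries and with quality weights, and 0 with quantile normalisation, without a trend and with the replicate block. It lay between 0 and 3 with 1 library left out, at 3 without either p0 library and at 0 without any other. Against p0, counts with 1 library left out lay between 0 and 3 at p10 Keniry2022, 0 and 2 at p20 Keniry2022, 0 and 4 at p10 Mulas2019 and 0 and 4 at p20 Mulas2019. At p10 Mulas2019 the count of 1 became 2 with log2(RPKM + 1), quantile normalisation and the filter on reads, 3 with median centring and voom with the filter on reads, and 0 with quality weights. At p20 Mulas2019 the count of 2 became 1 with the stricter filter, which leaves out Dusp6, and 0 with quality weights and without either p20 Mulas2019 library. The rises to 4 against p0 came without p0 replicate 2. The share of all features called at p10 was 4.01% without a filter, 9.09% with the filter on reads, 10.2% in voom with that filter, 48.3% in the model of 8 libraries and 50.9% with quality weights, at p20 36.7% and 35.3% in the last 2 of these, and for the day-matched groups 43.4% and 40.0%. With quality weights it was 0.00% in each comparison with p0. In the pooled comparison it was 19.2% in the model of all 10 libraries. With a p10 or p20 library left out it was 43.6% to 49.3% pooled, at most 3.75% at p10, 0.244% at p20 and 1.92% for the day-matched groups, and without a p0 library it reached 48.1%, 36.3% and 43.1%. Against p0 it was at most 17.3% with a p10 or p20 library left out and 64.3% to 71.8% without p0 replicate 2. The cause of these changes was not tested.

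In the alternatives run, 5 single values changed sign. With 1 library left out, Egr1 at p20 (-0.12) lay between -0.50 and 0.26, positive without p20 Keniry2022 replicate 1. Dusp4 at p10 (-0.13) lay between -0.36 and 0.10, positive without replicate 2 of p10 Keniry2022 (0.042) or Mulas2019. The mean change of Ier3 from p0 under Mulas2019 lay between -0.0012 (without p0 replicate 1) and 0.39. Etv5 at p10 Mulas2019 against p0 went from -0.23 to 0.025 with quantile normalisation. The 4 of these that were tested were not called before or after the change of sign. Etv5 (0.17 to 0.32) and Ier3 (-0.88 to -0.64) passed in the pooled comparison under 22 of 22 alternatives. Spred1 did not pass in the model of all 10 libraries (adjusted p = 0.086), and neither did Spry2 (adjusted p = 0.11), which also did not pass after quantile normalisation (0.19, adjusted p = 0.070). Of the 21 alternatives that gave a value for Phlda1, it passed in 1, quantile normalisation (0.40, adjusted p = 0.024). The replicate block changed the call of Etv4 in the pooled comparison and of Etv5 in the day-matched one, and no other member's call there. With the p20 Keniry2022 numbers crossed, a pairing chosen after seeing the data, the block called 4 members in the pooled comparison and 0 in the day-matched one. The filter on reads and voom with it were also chosen after seeing the data. Depth limits Egr1, Spry4 and Dusp4, which rest on 3 to 140 reads a library.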
